A study of Mus musculus with 4 samples.

Results

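MicroRNAs are made from long transcripts in steps, and the proteins that carry out these steps were followed here in mouse embryonic stem (mES) cells of the line E14 after knock-down of the zinc finger gene Zfp322a. The genes were Drosha and Dgcr8, Xpo5, Dicer1 and Tarbp2, the Argonaute genes Ago1 to Ago4, and Lin28a, 10 genes chosen by name. They were read by all 27 probe sets that carry one of these as their single gene symbol, out of 45037 probe sets and 18193 named genes on the array. Total RNA of 4 samples was hybridised, 1 Affymetrix mouse array per sample, and the question was which genes change when Zfp322a mRNA is lowered.

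All 4 samples were E14 cells grown in serum with leukaemia inhibitory factor (LIF), transfected with a plasmid and, as the labels have it, kept under puromycin for 3 days. In the 2 Zfp322a RNAi samples the plasmid was pSuper.puro with a short hairpin RNA (shRNA) against Zfp322a. For the 2 control RNAi samples the sources disagree. The labels call them mock RNAi with pSuper.puro and name no hairpin, whereas the methods for the arrays describe a control plasmid that makes an shRNA. Figure legends of the study, among them that of the PCR check of the arrays, name the empty vector as control. pSuper.puro makes its hairpin from an RNA polymerase III promoter. Such a hairpin does not need Drosha, but it is carried out of the nucleus by exportin 5, cut by Dicer and loaded on Argonaute proteins, so it is itself a substrate of most of the proteins described here. If the control plasmid held no hairpin, as in the labels, the depletion of Zfp322a and the processing of a hairpin cannot be told apart in this design. If it held one, as in the methods, both groups share that load. The study designed a pair of hairpins against Zfp322a, and the sources used here do not say which of them was on the arrays. Both are shown with the 19 bases of the Zfp322a mRNA strand in capitals, followed by a loop of 9 bases and the complementary strand, 47 bases in all.
shRNA-1: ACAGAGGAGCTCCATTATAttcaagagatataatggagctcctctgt
shRNA-2: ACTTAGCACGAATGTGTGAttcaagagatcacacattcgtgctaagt

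In the nucleus, Drosha cuts the hairpin of a miRNA precursor out of the primary transcript together with its RNA-binding partner Dgcr8, and the pair is called the Microprocessor. Exportin 5 (Xpo5) carries the precursor to the cytoplasm, where Dicer1 and its partner Tarbp2 trim it to a duplex, and an Argonaute protein keeps the mature strand and silences the mRNAs that pair with its seed, bases 2 to 8. Mouse ES cells without Dicer1 or Dgcr8 live and divide but differentiate poorly. Lin28a is an RNA-binding protein of pluripotent cells that holds back maturation of the let-7 miRNAs.

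Values are log2 levels from robust multi-array average (RMA) processing, given to 2 decimals. A change is the mean of Zfp322a RNAi minus that of control RNAi on the log2 scale, followed by its standard error, with n = 2 arrays per group. The adjusted p comes from limma over all 45037 probe sets with Benjamini-Hochberg adjustment, and a probe set is said to have risen or fallen where it was below 0.05. Array medians lay between 6.07 and 6.11. The correlation over all probe sets was 0.998 within both groups and 0.989 to 0.990 between arrays of different groups. Nothing in the labels ties the 2 samples of a group to separate cultures, and a p-value then reflects only how far these samples differ, which may be technical. Zfp322a itself was lower on both knock-down arrays. Its probe set 1452374_at read 8.82 and 8.89 in the control and 7.08 and 6.89 in the knock-down, which left 27.4% (change -1.87 ± 0.09, limma, adjusted p = 9.35e-04), and 1439035_at left 36.2% (-1.47 ± 0.14, adjusted p = 0.0022).

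Upon Zfp322a knock-down, the brightest probe sets for Drosha, Ago1 and Lin28a fell, and those for the other genes did not pass the test. Brightest means the highest mean over all 4 arrays. Dicer1, Tarbp2 and Ago4 had no probe set that passed. Within Dgcr8, Xpo5, Ago2 and Ago3 the probe sets gave unequal answers. Of the 27 probe sets, 8 passed the test. The 7 that fell were a pair for Drosha and 1 each for Dgcr8, Xpo5, Ago1, Ago2 and Lin28a, and the 1 that rose belonged to Ago3. Among all probe sets 20.1% passed, 10.6% as higher and 9.47% as lower. These shares include many dim probe sets. With dim ones left out of the fit, 11 of the remaining 22 passed, against 45.5% of all. The knock-down and control arrays did not overlap for 21 of the 27, against 57.5% of all probe sets. The median change was -0.08 over the 27 and -0.03 over all probe sets. The 8 calls rest on all 4 arrays. Without any 1 array no probe set of the 45037 passed the test (limma, lowest adjusted p 0.11 to 0.138, with 10572 to 11509 probe sets at an unadjusted p under 0.05), while all 8 kept their sign at adjusted p between 0.11 and 0.194.

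**Figure D1:**
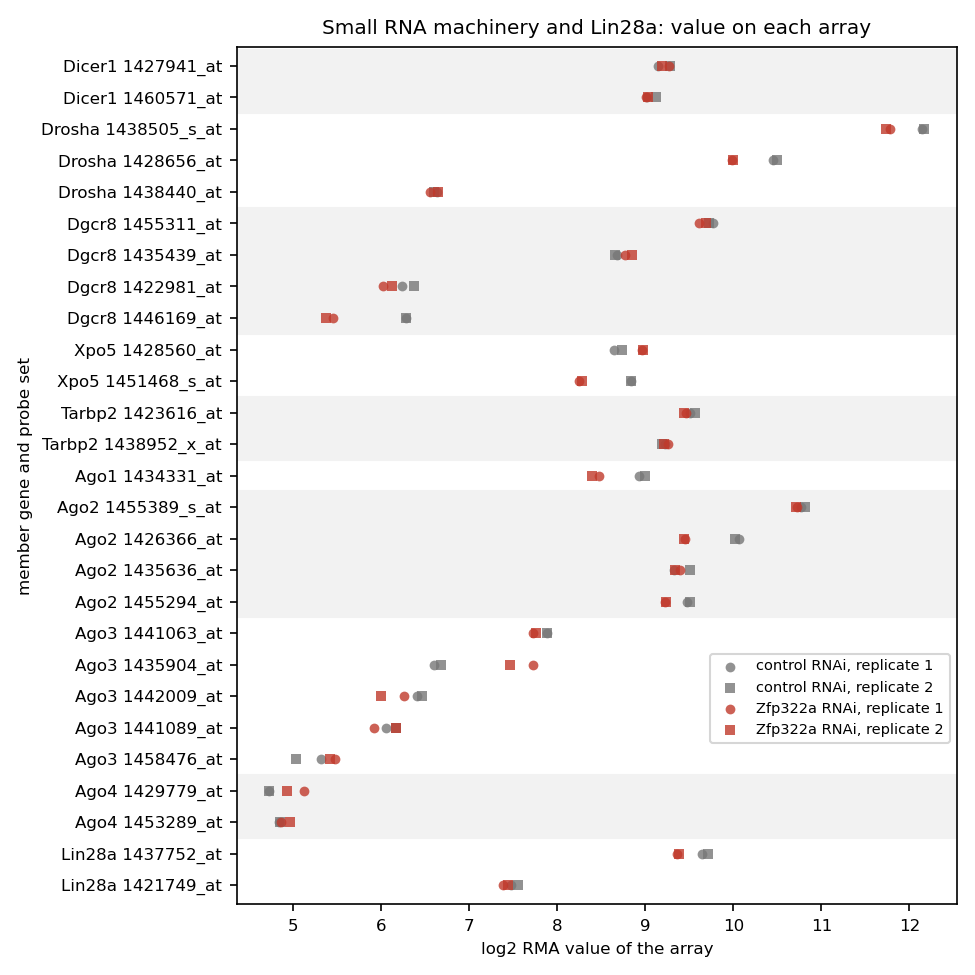
Log2 RMA value (horizontal axis) of each of the 27 probe sets for the small RNA machinery and Lin28a (vertical axis) on the 4 arrays, grey for control RNAi, red for Zfp322a RNAi, circles for replicate 1 and squares for replicate 2. For Drosha 1428656_at the knock-down arrays read 9.99 and 10 and the control arrays 10.45 and 10.50, while for Dicer1 1427941_at the groups overlap.

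**Figure D2:**
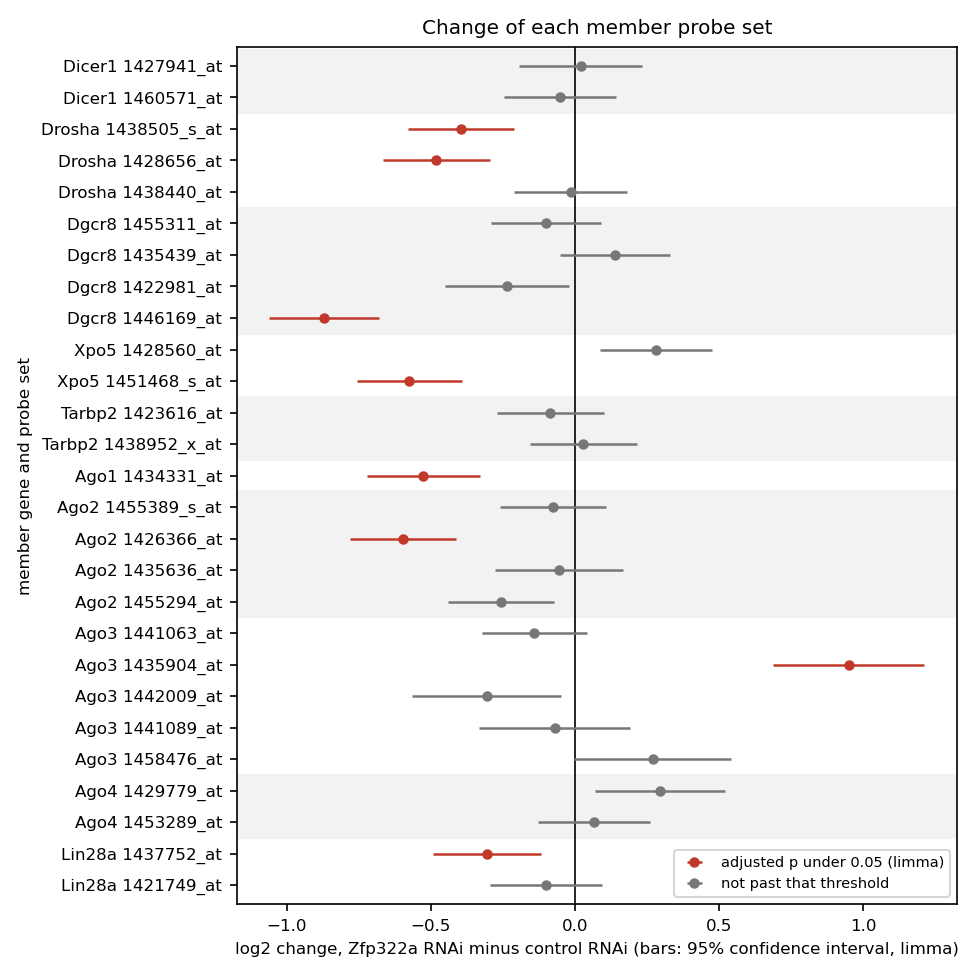
Log2 change, Zfp322a RNAi minus control RNAi, of the same probe sets with 95% confidence intervals from limma (n = 2 arrays per group), red where the adjusted p was below 0.05. Of the 8 in red, 7 lie below 0 and 1, for Ago3, lies above it.

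Drosha, the nuclease of the Microprocessor, was lower by both of its brighter probe sets. Probe set 1438505_s_at read 12.14 and 12.17 in the control and 11.78 and 11.74 in the knock-down, a change of -0.40 ± 0.08 that left 76% (limma, adjusted p = 0.0164). Probe set 1428656_at read 10.45 and 10.50 against 9.99 and 10, a change of -0.48 ± 0.08 that left 71.7% (adjusted p = 0.00882). In both, each knock-down array lay below each control array by more than the arrays of a group differed from each other. The dimmest, 1438440_at, read 6.63 and 6.60 against 6.55 and 6.65, so that its groups overlapped, and its change of -0.02 ± 0.08 did not pass the test (adjusted p = 0.924). The difference between this change and that of 1438505_s_at was 0.38 and missed the threshold as well (limma over pairs of probe sets, adjusted p = 0.0568).

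Dgcr8, the RNA-binding partner of Drosha, was read by 4 probe sets that moved unequally. The brightest, 1455311_at, read 9.77 and 9.73 in the control and 9.61 and 9.69 in the knock-down (-0.10 ± 0.08, limma, adjusted p = 0.443). Probe set 1435439_at read 8.68 and 8.66 against 8.77 and 8.85, a difference in the other direction that did not pass either (0.14 ± 0.08, adjusted p = 0.279). The 95% intervals of these were -0.29 to 0.09 and -0.05 to 0.33. Probe set 1422981_at read 6.24 and 6.37 against 6.02 and 6.12 (-0.23 ± 0.09, adjusted p = 0.122). Only 1446169_at fell, from 6.28 on both control arrays to 5.45 and 5.37, where it lay below the median of the array. It left 54.7% (-0.87 ± 0.08, limma, adjusted p = 0.00193). Thus the change called for Dgcr8 stood on 1 dim probe set of 4, and it was the largest fall among the 27.

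Xpo5, the exportin of miRNA precursors and of shRNAs, was read by a pair of probe sets with opposite differences. Probe set 1451468_s_at read 8.84 on both control arrays and 8.25 and 8.28 in the knock-down, a fall that left 67.1% (-0.57 ± 0.07, limma, adjusted p = 0.0049). Probe set 1428560_at read 8.64 and 8.74 against 8.96 and 8.98, so that here both knock-down arrays were the higher ones (0.28 ± 0.08, adjusted p = 0.0574). With each array centred on its median, 1428560_at also passed, as higher (0.31, limma, adjusted p = 0.0444). It passed as higher too with dim probe sets left out (limma, adjusted p = 0.0172) and with a variance trend (adjusted p = 0.0111). The same held with only the brightest probe set of each gene (limma, adjusted p = 0.0345). That choice uses the knock-down arrays too. In the control alone 1451468_s_at was the brighter one (mean 8.84 against 8.69), so this result depends on the change itself. No direction for the gene as a whole can be read from these arrays.

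Dicer1, the nuclease that cuts precursors and shRNAs to their final length, did not pass the test with either probe set. Probe set 1427941_at read 9.14 and 9.28 in the control and 9.27 and 9.19 in the knock-down, and 1460571_at read 9.02 and 9.12 against 9.01 and 9.03. The groups overlapped in both. The changes were 0.02 ± 0.09 and -0.05 ± 0.08 (limma, adjusted p = 0.906 and 0.722), with 95% intervals of -0.19 to 0.23 and -0.24 to 0.14. Tarbp2, which helps Dicer hand the duplex to an Argonaute protein, gave changes of -0.08 ± 0.08 by 1423616_at and 0.03 ± 0.08 by 1438952_x_at (limma, adjusted p = 0.502 and 0.832). Their intervals reached from -0.27 to 0.10 and from -0.16 to 0.22.

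The 4 Argonaute genes bind the mature strand, and Ago2 alone among them is known as an efficient slicer of fully paired targets, the activity on which shRNA knock-down relies. In RefSeq, Ago3, Ago1 and Ago4 lie next to each other on chromosome 4 with 0 other genes between them. Ago1 fell. Its only probe set, 1434331_at, read 8.93 and 9.0 in the control and 8.48 and 8.40 in the knock-down, which left 69.5% (-0.53 ± 0.08, limma, adjusted p = 0.00797).

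Ago2 fell by 1 of its 4 probe sets. Probe set 1426366_at read 10.06 and 10.02 in the control and 9.45 and 9.44 in the knock-down and left 66.2% (-0.59 ± 0.08, limma, adjusted p = 0.0045). The brightest, 1455389_s_at, read 10.77 and 10.81 against 10.72 and 10.71 (-0.07 ± 0.08, adjusted p = 0.552). The knock-down arrays were lower in both, but the second difference was within the error of the fit, with an interval of -0.26 to 0.11. Probe set 1455294_at read 9.47 and 9.51 against 9.23 and 9.24 without passing the test (-0.25 ± 0.08, adjusted p = 0.0636). For 1435636_at the groups overlapped (-0.06 ± 0.09, adjusted p = 0.734).

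Ago3 rose by 1 of its 5 probe sets, 1435904_at, which read 6.60 and 6.68 in the control and 7.72 and 7.46 in the knock-down. The rise was 0.95 ± 0.11, or 1.93-fold (limma, adjusted p = 0.00335), and was the largest of the 27 changes in size. The knock-down arrays differed from each other more than the control arrays did, yet both lay well above them. The brightest probe set for Ago3, 1441063_at, read 7.88 on both control arrays and 7.72 and 7.76 in the knock-down, a difference in the other direction (-0.14 ± 0.08, adjusted p = 0.262). The other 3 gave changes of -0.31, -0.07 and 0.27, none past the test. Ago4 was read by a pair of probe sets below the array median. Of these, 1429779_at read 4.73 on both control arrays and 5.12 and 4.93 in the knock-down (0.29 ± 0.09, limma, adjusted p = 0.0748), and 1453289_at differed by 0.06 ± 0.08 (adjusted p = 0.633).

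Because genes of the pathway were read unequally, the difference between each further probe set of a gene and the brightest one was tested on the same arrays, over all 16752 such pairs. Among these genes 4 of 17 pairs changed unequally, 1 each for Dgcr8, Xpo5, Ago2 and Ago3, against 17.5% of all pairs. The difference was -0.77 ± 0.11 for 1446169_at of Dgcr8 (limma, adjusted p = 0.00647) and -0.85 ± 0.11 for 1451468_s_at of Xpo5 (adjusted p = 0.00489). For 1426366_at of Ago2 it was -0.52 ± 0.10 (adjusted p = 0.0179), and for 1435904_at of Ago3 it was 1.09 ± 0.13 (adjusted p = 0.00461). The transcripts and exons that each probe set reads were not analysed here, so whether isoforms or the probes differ was not tested. Probe sets whose names end in _s_at or _x_at, 1438505_s_at, 1451468_s_at, 1455389_s_at and 1438952_x_at here, can also read other transcripts.

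**Figure D3:**
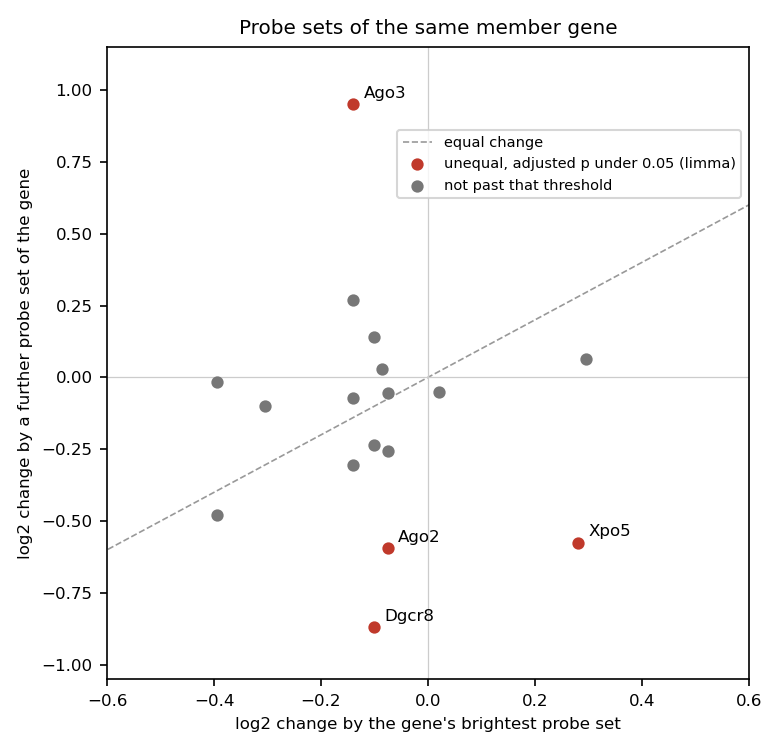
Log2 change (Zfp322a RNAi minus control RNAi) of each further probe set of a gene (vertical axis) against that of the gene's brightest probe set (horizontal axis), for 17 pairs from 9 genes, with the dashed line marking equal change. The 4 red points are pairs with unequal change (limma, adjusted p below 0.05), for Ago3 above the line and for Xpo5, Ago2 and Dgcr8 below it.

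Lin28a binds let-7 precursors at GGAG in the terminal loop and recruits a uridylyl transferase, which marks them for decay. The let-7 family is shown here as the RNA on which it acts. RefSeq (GRCm38.p6) lists 8 different mature 5p forms, which share the seed GAGGUAG, given in capitals.
mmu-let-7a-5p: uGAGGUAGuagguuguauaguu
mmu-let-7b-5p: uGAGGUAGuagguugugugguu
mmu-let-7c-5p: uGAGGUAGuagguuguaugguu
mmu-let-7d-5p: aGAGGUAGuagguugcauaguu
mmu-let-7e-5p: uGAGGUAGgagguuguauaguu
mmu-let-7f-5p: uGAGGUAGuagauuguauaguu
mmu-let-7g-5p: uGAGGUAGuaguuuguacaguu
mmu-let-7i-5p: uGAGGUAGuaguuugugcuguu

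Of the 11 let-7 hairpins in that table, 9 hold GGAG between the mature arms, and those of let-7b and let-7c-2 do not. The letters GGAG occur anywhere in 44.5% of all 1005 mouse hairpins of the table. The hairpin of let-7g, at chr9:106178840-106178927 on the plus strand, is printed with GGAG in capitals.
let-7g hairpin: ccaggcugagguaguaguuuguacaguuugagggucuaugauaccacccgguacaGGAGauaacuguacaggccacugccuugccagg

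Lin28a fell by 1 of its probe sets. Probe set 1437752_at read 9.64 and 9.71 in the control and 9.36 and 9.38 in the knock-down, which left 80.9% (-0.30 ± 0.08, limma, adjusted p = 0.0403). Both knock-down arrays lay below both control arrays, but the call stood close to the threshold and was lost with each array centred on its median (adjusted p = 0.0585) and with the mean of both probe sets (-0.20, adjusted p = 0.0676). Probe set 1421749_at read 7.47 and 7.55 against 7.38 and 7.44, which did not pass (-0.10 ± 0.08, adjusted p = 0.45). Its paralogue Lin28b, which restrains let-7 as well, was read by 1 probe set that lay below the array median in both groups. It gave 4.12 and 4.08 in the control and 4.95 and 4.63 in the knock-down, a rise at this low level (0.69 ± 0.12, limma, adjusted p = 0.0116).

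In these unsorted cells, fewer cells with a transcript and less transcript per cell cannot be told apart. Markers of mES cells and of other cell types were therefore counted, by the brightest probe set of each gene. At this level 12.2% of all 18193 genes were higher and 11.5% lower. Of 10 mES cell markers, all above the array median, 3 fell (Esrrb, by 1 of 3 probe sets, Utf1 and Tdgf1), 0 rose and 7 did not pass. Pou5f1, Nanog, Sox2 and Zfp42 were among the latter. They changed by -0.055, -0.025, 0.015 and 0.06 (limma, adjusted p = 0.677, 0.872, 0.943 and 0.662). For these genes the study reports lower mRNA by PCR. It also reports lower levels of their proteins, which the arrays do not read. The summed linear level of the 10 markers was 63400 to 64700 in the control and 57600 to 57900 in the knock-down. This sum gives most weight to the brightest marker, Dppa5a, which did not pass (-0.16 ± 0.08, adjusted p = 0.21). Of 10 endoderm markers, 5 of them below the array median, 6 rose and 0 fell, with Gata6 and Foxa1 among the rises. Of the 4 that did not pass, Dab2 was higher (0.30) and Gata4, Afp and Lama1 were lower (-0.13, -0.16 and -0.335). The sum was 1020 and 1120 on the control arrays and 1420 on both knock-down arrays. It gives most weight to Lama1, the brightest of these markers. Of 9 trophectoderm markers 4 fell and 1 rose (sums 2170 to 2260 and 1490 to 1500), while of 7 neural markers Tubb3 rose (0.66 ± 0.08, adjusted p = 0.00455) and 0 fell, with a median change of -0.08 (sums 703 to 706 and 805 to 811). Of 11 fibroblast and feeder cell markers, 8 of them below the array median, 1 fell and 0 rose (641 to 652 and 552 to 558). The part of these shifts in the changes of Lin28a, Drosha and the Argonaute genes was not tested.

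Lists of genes around the pathway were counted by the brightest probe set of each gene. They were chosen with results of these data known, so the counts describe the lists and do not test them. Beside them stand the shares given above, 12.2% of all genes higher and 11.5% lower, with a median change of -0.04. These shares include dim genes, whereas nearly all list genes lay above the array median. With dim probe sets left out, 45.5% of all probe sets passed, and 67 of 118 list genes by their brightest probe set, which is not the same unit. Of 15 other nuclear cofactors of miRNA processing 2 rose, 0 fell and 13 did not pass, with a median of 0.00. Those that rose were Hnrnpa1, an RNA-binding protein that remodels some primary transcripts (0.55 ± 0.08, adjusted p = 0.00767), and Zc3h14, a poly(A)-binding protein (0.46 ± 0.08, adjusted p = 0.0112). Hnrnpa1 rose by 1 of 3 probe sets and Zc3h14 by 2 of 2. Of 6 genes of nuclear export, 2 rose and 0 fell (median 0.10). These were the nuclear pore genes Nup153 (0.64 ± 0.08, adjusted p = 0.00484, 1 of 3 probe sets) and Ranbp2 (0.59 ± 0.08, adjusted p = 0.00564, 2 of 4). Of 12 partners of Dicer and factors of Argonaute loading, 1 rose, 0 fell and 11 did not pass (median -0.01). The 1 was Dnaja2, a cochaperone of Hsp70 (0.33 ± 0.07, adjusted p = 0.0284), for which 1 further probe set fell. Prkra, a double-stranded RNA-binding partner of Dicer, read 8.41 and 8.56 against 8.65 and 8.41 (0.04 ± 0.11, adjusted p = 0.826).

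Of the 30 silencing effectors, which act after loading, 7 rose, 7 fell and 16 did not pass (median 0.12). The scaffold proteins Tnrc6a and Tnrc6b, which link Argonautes to deadenylases, rose. Tnrc6a read 11.39 and 11.44 in the control and 11.97 and 12.01 in the knock-down (0.57 ± 0.08, limma, adjusted p = 0.00528), and 7 of its 9 probe sets rose. Tnrc6b read 9.17 and 9.18 against 9.76 and 9.63 (0.52 ± 0.08, adjusted p = 0.00919, 1 of 3 probe sets), whereas Tnrc6c differed by 0.04 (adjusted p = 0.792). The CCR4-NOT subunits Cnot8 (0.71 ± 0.07, adjusted p = 0.00278) and Cnot6 (0.62 ± 0.08, adjusted p = 0.00461), both deadenylases, rose by all their probe sets. The LIM protein Ajuba (1.21 ± 0.08, adjusted p = 0.00108) and Fmr1, an RNA-binding protein of translation control (0.71 ± 0.08, adjusted p = 0.0032), rose as well, Fmr1 by 1 of 3 probe sets.

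The 4 largest falls among the silencing effectors were those of Dcp2, Xrn1, Trim71 and Ddx6. Dcp2, the decapping enzyme, went from 11.70 and 11.80 on the control arrays to 10.72 and 10.74 in the knock-down, which left 49.3% (-1.02 ± 0.08, limma, adjusted p = 0.00154). Xrn1, the exonuclease that degrades decapped mRNA, read 9.18 and 9.19 against 8.63 and 8.61 (-0.56 ± 0.07, adjusted p = 0.00514). Both fell by 1 of 2 probe sets. Ddx6, a helicase that joins silencing to decapping, fell from 10.86 and 10.84 to 10.35 and 10.29 (-0.53 ± 0.08, limma, adjusted p = 0.00669, 2 of 4 probe sets). Trim71, itself a known let-7 target and a repressor of mRNAs in ES cells, also fell (-0.56 ± 0.08, adjusted p = 0.00783).

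Of 13 genes that control let-7 or turn over small RNAs 4 rose, 2 fell and 7 did not pass (median 0.21). Tut4, a uridylyl transferase that Lin28a recruits to let-7 precursors, read 9.40 and 9.36 in the control and 10.17 and 10.03 in the knock-down. This was a 1.65-fold rise (0.72 ± 0.09, limma, adjusted p = 0.00377), and 3 of 5 probe sets rose. Lin28b, Tent2, a poly(A) polymerase (0.54 ± 0.07, adjusted p = 0.00585), and Syncrip, an RNA-binding protein (0.36 ± 0.09, adjusted p = 0.035), were the other rises, with 1 further probe set of Syncrip lower. Parn, a deadenylase (-0.67 ± 0.08, adjusted p = 0.00436), and the exonuclease Xrn2 (-0.45 ± 0.08, adjusted p = 0.0123) fell, by 2 of 2 and 1 of 3 probe sets.

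Of 21 mRNAs known as let-7 targets, which include Lin28a and Dicer1 described above, 9 rose, 4 fell and 8 did not pass (median 0.14). Myc rose from 7.20 and 7.0 on the control arrays to 8.25 and 8.19 in the knock-down (1.12 ± 0.10, limma, adjusted p = 0.00177). The cyclin gene Ccnd2 (1.04 ± 0.10, adjusted p = 0.0024) and the chromatin gene Hmga2 (0.79 ± 0.08, adjusted p = 0.00248) rose too, by 6 of 7 and 3 of 4 probe sets. Lin28b, named above, is also in this list. The falls were those of Trim71, Lin28a, Cdc34, a ubiquitin-conjugating enzyme (-0.45 ± 0.08, adjusted p = 0.0156), and Igf2bp3, an RNA-binding protein (-0.33 ± 0.08, adjusted p = 0.0327, 2 of 6 probe sets). The let-7 level itself was not measured on these arrays.

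Transcripts that host miRNAs were read by 16 genes, of which 2 rose, 6 fell and 8 did not pass (median -0.03). Mirg and Rian, noncoding RNAs of the imprinted Dlk1-Dio3 domain that carry clusters of miRNAs and small nucleolar RNAs, fell by all their probe sets. Mirg read 9.49 and 9.54 in the control and 8.51 and 8.44 in the knock-down, which left 48.6% (-1.04 ± 0.08, limma, adjusted p = 0.00146), and Rian changed by -0.93 ± 0.09 (adjusted p = 0.00217). Srebf2, which hosts miR-33, fell by 0.65 on the log2 scale (SE 0.09, adjusted p = 0.00554), and Ctdsp1 fell by 0.41 (SE 0.08, adjusted p = 0.0172). Dleu2, the host of miR-15a and miR-16-1, rose 4.33-fold from 5.46 and 5.75 to 7.76 and 7.68 (2.11 ± 0.11, adjusted p = 0.00103), but only by 1 of 3 probe sets. Pank3, which hosts a miR-103 gene, rose by 0.54 ± 0.07 (adjusted p = 0.00593). Of 11 RNA-binding proteins of ES cells and germ cells 3 rose, 2 fell and 6 did not pass (median 0.04). The rises were Rbm46 (2.31 ± 0.13, limma, adjusted p = 0.00105), Dazl (0.73 ± 0.08, adjusted p = 0.00312) and Pum2 (0.29 ± 0.08, adjusted p = 0.0456, 2 of 4 probe sets). Rbm47 (-0.54 ± 0.08, limma, adjusted p = 0.00763, 2 of 3 probe sets) and L1td1 (-0.32 ± 0.08, adjusted p = 0.0367) were the falls.

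**Figure D4:**
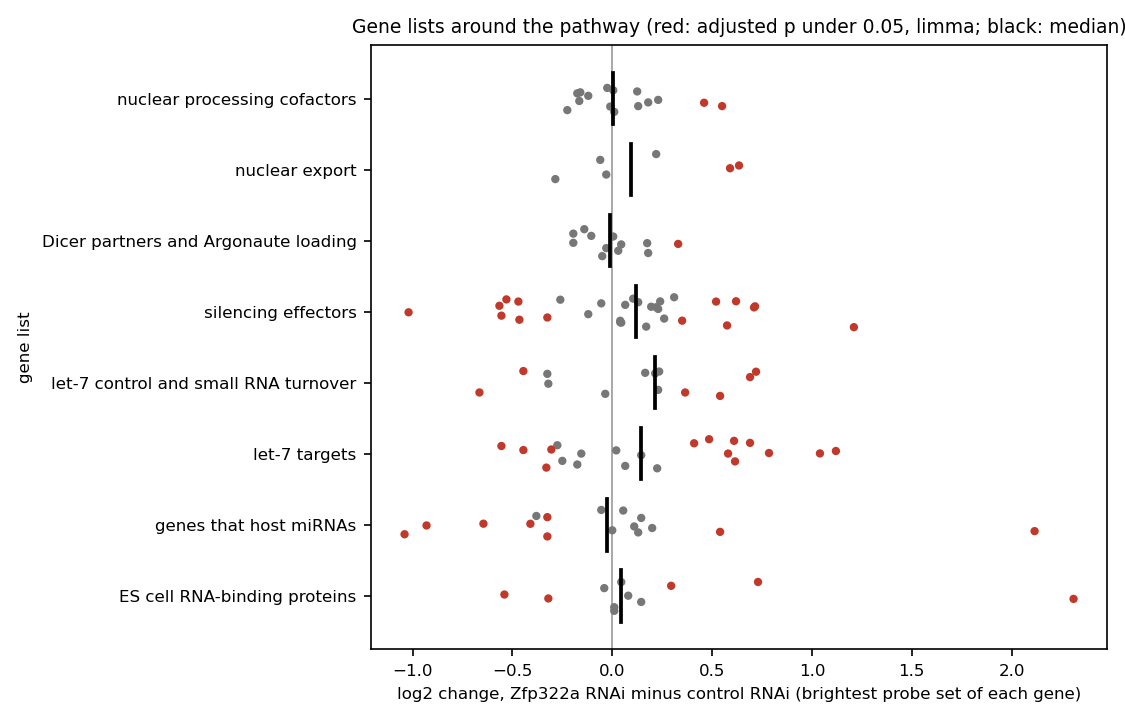
Log2 change (horizontal axis, Zfp322a RNAi minus control RNAi, brightest probe set of each gene) of genes in 8 lists around the pathway (vertical axis), each point a gene, with Lin28a and Dicer1 among the let-7 targets, red where the adjusted p was below 0.05 (limma, n = 2 arrays per group), with black lines at the list medians. The silencing effectors hold 7 red points on either side of 0, and the medians lie between -0.03 and 0.21.

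The promoters of the 3 genes whose brightest probe set fell, Drosha, Ago1 and Lin28a, are printed to show what they do and do not share. Each is the 250 bases before the start of the gene in RefSeq (GRCm38.p6), 5′ to 3′ on the strand of the gene. Capitals mark CCAAT, the box bound by the factor NF-Y, and the GC box GGGCGG, bound by Sp1, or the reverse complement of either where the match is on the other strand, and no matches overlap in these windows. Drosha lies at chr15:12824565-12824814 on the plus strand, Ago1 at chr4:126468632-126468881 and Lin28a at chr4:134018817-134019066, both on the minus strand.
Drosha: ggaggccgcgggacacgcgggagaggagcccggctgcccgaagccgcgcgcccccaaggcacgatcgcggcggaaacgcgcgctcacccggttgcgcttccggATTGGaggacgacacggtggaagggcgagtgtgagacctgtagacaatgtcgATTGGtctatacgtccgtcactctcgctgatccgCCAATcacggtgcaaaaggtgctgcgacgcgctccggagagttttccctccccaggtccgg
Ago1: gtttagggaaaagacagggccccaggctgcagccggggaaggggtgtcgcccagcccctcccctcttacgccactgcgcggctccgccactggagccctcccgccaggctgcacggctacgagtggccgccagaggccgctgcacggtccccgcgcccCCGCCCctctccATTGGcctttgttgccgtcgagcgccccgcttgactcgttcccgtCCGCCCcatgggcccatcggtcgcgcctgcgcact
Lin28a: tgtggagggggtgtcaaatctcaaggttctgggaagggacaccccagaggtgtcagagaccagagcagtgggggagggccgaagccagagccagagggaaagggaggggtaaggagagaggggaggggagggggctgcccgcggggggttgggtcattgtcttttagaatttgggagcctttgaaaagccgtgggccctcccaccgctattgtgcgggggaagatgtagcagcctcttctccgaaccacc

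The Drosha window holds 3 CCAAT boxes and no GC box, that of Ago1 holds 1 CCAAT box and 2 GC boxes, and that of Lin28a holds neither. Of 27025 promoters of the same length 34.5% hold CCAAT and 32.9% hold GGGCGG on either strand. The windows also differed in base composition, with 33 CpG in Drosha, 26 in Ago1 and 7 in Lin28a against a median of 6 over all promoters. The E-box CACGTG, held on either strand by 6.05% of promoters, was found in none of the 3 windows. The same holds for the TATA box TATAAA (13.0% of promoters) and for the octamer ATGCAAAT (1.61%). CCAAT also occurs in the windows of Dgcr8 (4), Tarbp2 (3) and Dicer1 (1), of which the latter pair had no probe set past the test.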

How the data were processed

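RNA of 2 control RNAi and 2 Zfp322a RNAi samples was hybridised to 1-colour Affymetrix arrays. The authors processed the arrays with RMA (version not given in the sources used here) and deposited log2 values to 2 decimals, which were used as deposited. RMA makes the quantiles of arrays alike, so a shift of all genes would not appear. Groups were taken from the sample titles. The labels give 3 days of selection, and the methods a longer one for the arrays.

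Of 45037 probe sets 34945 had 1 gene symbol in the platform annotation, 932 had several and 9160 had none. Symbols were updated by Entrez ID through RefSeq (GRCm38.p6), which matched 34741 and gave 18193 genes. No probe set was left out for low signal. Groups were compared with limma 3.58.1 under R 4.3.3 (two-sided moderated test from lmFit and eBayes, 2 residual degrees of freedom, threshold 0.05). The number of arrays limits the precision. The same fit was run on differences between probe sets of a gene, a test chosen after seeing the data. The procedure was tested on simulated data.

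The genes and lists were chosen with earlier results of these data known. Named are all probe sets of the 10 genes, Zfp322a, in each pathway list the 4 largest rises and falls past the threshold, and Lin28b, Prkra, Tnrc6a, Tnrc6b and Tnrc6c; marker genes are given as counts with examples chosen after their values were seen. Promoters were matched by symbol for 9 of the 10 genes. The alternatives were median centring, a further quantile normalization, leaving out dim probe sets or those ending in _s_at or _x_at, a variance trend, 1 value per gene (brightest or mean), a replicate block, a 1.5-fold cut-off as in the methods, without a test, and leaving out each array.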

Additional observations from a re-analysis of the deposited data

How the results depend on the processing

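Of the 8 probe sets called among the 27, 8 also passed after a further quantile normalization (9 called, 20.9% of all probe sets) and with a variance trend (10 called, 25.8% of all), and 7 with each array centred on its median (8 called, 19.8% of all). With dim probe sets left out 11 of 22 were called, near the 45.5% of all those probe sets, and without those ending in _s_at or _x_at 6 of 23, against 19.8%. With 1 value per gene 4 of the 10 genes passed by the brightest probe set, against 28.4% of all genes. Drosha, Ago1 and Lin28a were the 3 lower ones, and Xpo5 was the 1 higher (0.28, limma, adjusted p = 0.0345). By the control arrays alone, the brighter Xpo5 probe set is the one that fell. By the mean of all probe sets 4 genes passed (4 lower, 0 higher), against 26.7% of all genes. These were Drosha, Dgcr8, Ago1 and Ago2. The 1.5-fold rule took 3 of the 27 probe sets, 2 of them lower, against 3294 of all 45037. The number called as higher was 2 with centring, with dim probe sets left out and with the variance trend. For these settings the share of all probe sets called as higher was not counted. The variance trend also took the rises among all pathway lists from 29 to 44.

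Leaving out any 1 array gave 0 calls among the 27 and in the pathway lists (range 0 to 0), where 1 group holds a lone array that is assumed to vary like the other group. At an unadjusted p under 0.05 stood 10 to 12 of the 27. The change of Zfp322a by 1439035_at then lay between -1.67 and -1.26.

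The sources used here do not say whether arrays with the same replicate number were made together. The correlation of the deviations of same-numbered arrays was 0.0561, where each group of 2 has 1 independent deviation. With the replicate number as a block there were 0 calls among the 27 (0 higher, 0 lower), 0 in the pathway lists and 0 of 45037 in all (limma, lowest adjusted p 0.0513, 13586 at an unadjusted p under 0.05, 12 of them among the 27). Zfp322a then changed by -1.47 (adjusted p = 0.0523). The block leaves fewer residual degrees of freedom than the 2 of the main fit.

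Signs turned only for probe sets that had not passed. Dicer1 1427941_at was -0.03 after a further quantile normalization, -0.015 by the gene mean and -0.05 to 0.09 with 1 array left out (-0.05 without control replicate 1, -0.02 without knock-down replicate 1). Drosha 1438440_at was 0.015 with centring, 0.0112 after quantile normalization and -0.065 to 0.035 with 1 array left out (0.035 without knock-down replicate 1). Xpo5 was -0.15 and Ago3 0.14 by the gene mean. Tarbp2 1438952_x_at was -0.02 after quantile normalization, Ago2 1435636_at was -0.145 to 0.035 with 1 array left out (0.035 without control replicate 2), and Ago3 1441089_at was -0.195 to 0.055 (0.055 without knock-down replicate 1). The cause of these shifts was not tested.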
